A study of Rattus norvegicus with 4 samples.

Results

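The Bcl2 family holds proteins that keep the mitochondrial outer membrane closed and proteins that open it. Its expression was described here for 10 genes in rat adrenal medulla: the survival genes Mcl1, Bcl2, Bcl2l1 and Bcl2l2, the pore formers Bax and Bak1, the BH3-only genes Bcl2l11, Bbc3 and Pmaip1, and Bnip3. Members were taken as every probe set, a group of short probes read as 1 value, whose platform annotation names one of these genes alone. This gave 14 probe sets for 8 genes, of 31042 probe sets for 14217 named genes on the array. The only probe set annotated to Bax also names a second gene, and no probe set was annotated to Pmaip1, so neither gene is given a value.

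Total RNA of the adrenal medulla was hybridised to 4 single-colour oligonucleotide arrays, 2 from rats immobilized for 2 h, a standard form of restraint stress in rodents, and 2 from unstressed rats. The comparison asks which transcripts differ after immobilization. The labels give no strain, sex or age, do not say how soon after immobilization tissue was taken, and do not say whether an array holds 1 animal or a pool. The p-values therefore measure the spread between these arrays, which may be technical.

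Survival proteins of the family bind and hold in check the pore formers and the BH3-only proteins. BH3-only proteins are made or activated under stress and release that check, after which Bax and Bak1 let cytochrome c out of the mitochondria and caspases are activated. Mcl1 differs from its relatives in the short life of its mRNA and protein. Chromaffin cells, the catecholamine-secreting cells of the medulla, are long-lived neuroendocrine cells of the sympathetic lineage.

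The 6 chromaffin cell markers were bright on every array and none passed the test, with summed intensities of 245616 to 353081 on the immobilized arrays and 264128 to 283086 on the unstressed arrays. The 4 measured markers of the adrenal cortex, the steroid-making outer layer, were bright as well. Their sums were 143547 to 196207 on the immobilized arrays and 183508 to 213455 on the unstressed arrays, none passed the test, and RNA of cortex cells was thus present on every array. Among 4 endothelial markers, with sums of 24949 and 27076 on the immobilized arrays and 30525 and 39686 on the unstressed arrays, Kdr fell by 0.79 on the log2 scale. Among 3 Schwann and sustentacular cell markers, with sums of 6159 to 7068 on the immobilized arrays and 6817 to 7880 on the unstressed arrays, Gfap rose by 1.76 and S100b fell by 0.59. The markers of macrophages and fibroblasts, 4 of each, did not pass. None of the 4 T and B cell markers with a probe set was bright enough to be tested. The part of these cell types in the results below was not tested. In such bulk samples, fewer cells of a type and less RNA per cell cannot be told apart.

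The survival genes Mcl1 and Bcl2l1 rose and the BH3-only gene Bbc3 fell after 2 h of immobilization. Both Mcl1 probe sets rose, by 0.70 and 1.5 on the log2 scale, and the brightest Bcl2l1 probe set rose by 1.13. Bbc3, which encodes Puma, fell by 0.72. The changes of the tested probe sets of Bcl2l2, Bcl2l11, Bak1 and Bnip3 did not pass the threshold. A probe set was tested if its mean log2(intensity + 16) over all arrays lay above the 40th percentile, an intensity of about 543.8. A probe set under this level in either group could thus be tested through the other group. Of the 14 member probe sets 9 were tested, for 7 genes, and the single Bcl2 probe set was among the 5 that were too dim.

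Of these 9 probe sets, 3 were higher after immobilization in limma (threshold 0.05 after Benjamini-Hochberg adjustment), and 1 was lower. Over all 18625 tested probe sets, 11.7% were called higher and 19.4% lower. The groups did not overlap at 6 of the 9, 3 higher and 3 lower, a share close to the 67.8% of all tested probe sets at which they did not overlap. The median log2 change was 0.074 over the 9 probe sets and -0.12 over all tested ones. The median absolute log2 change was 0.44 over the members and 0.39 over all tested probe sets. After centring each array on its median, the median change of all tested probe sets moved by 0.14, to 0.019, and 2844 of all probe sets were called higher and 2497 lower, against 2180 and 3619 with the deposited scaling.

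**Figure D1:**
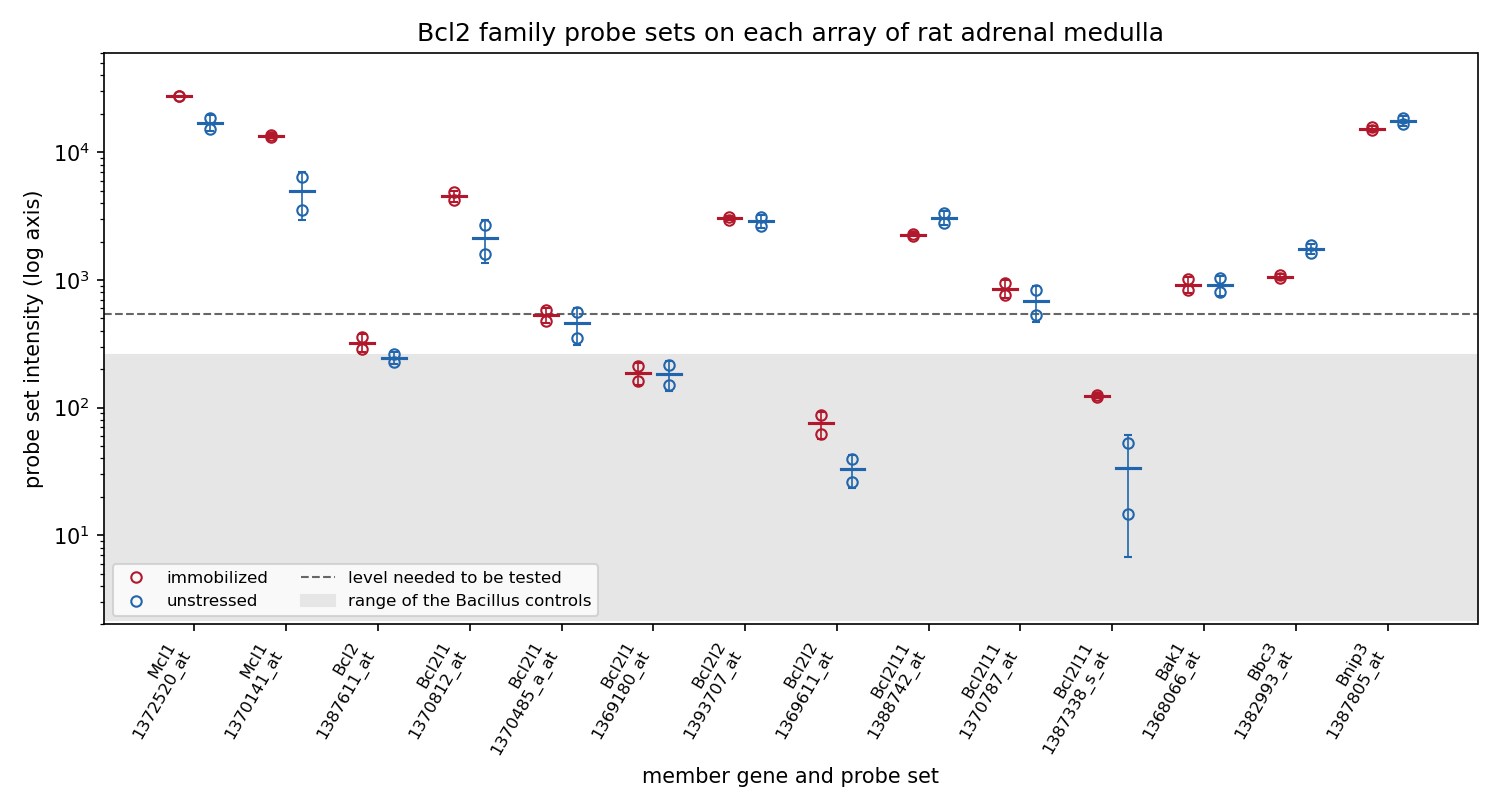
Intensity of each of the 14 member probe sets on each array, on a log axis: circles are single arrays, bars the group mean and whiskers its SD (n = 2). The grey band spans the readings of the Bacillus control probe sets, up to 257, and the dashed line marks the level needed to be tested, about 543.8. The immobilized arrays lie above the unstressed arrays for both Mcl1 probe sets and Bcl2l1 1370812_at, and below them for Bbc3.

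Mcl1 encodes a survival protein that binds Bak1 and BH3-only proteins. Its brightest probe set, 1372520_at, read 27546 and 27540 on the immobilized arrays and 15309 and 18740 on the unstressed arrays. The second, 1370141_at, read 13137 and 13744 on the immobilized arrays and 3538 and 6363 on the unstressed arrays. At both, the lower immobilized reading exceeded the higher unstressed one, and the immobilized arrays lay closer together. The mean intensity of 1370141_at was 13440 ± 429 in immobilized rats and 4950 ± 1998 in unstressed rats (SD, n = 2 each). Its log2 change of 1.5 ± 0.26 (SE) is 2.83-fold, with a 95% interval of 0.89 to 2.11 and an adjusted p of 0.00641 in limma. Of all tested probe sets 5.27% had a larger absolute change.

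The mean of 1372520_at was 27543 ± 4.03 in immobilized rats and 17025 ± 2426 in unstressed rats (SD, n = 2 each). Its log2 change of 0.70 ± 0.14 (SE) is 1.63-fold, with a 95% interval of 0.36 to 1.04 and an adjusted p of 0.0121. It lies at percentile 97.9 of level, and on these arrays log2 changes were smaller among bright probe sets. The SD of the log2 changes was 0.601 between the 95th and 98th percentiles of level and 0.807 between the 60th and 80th. The change of 1370141_at exceeded that of 1372520_at by 0.80 ± 0.26 (SE), with a 95% interval of 0.25 to 1.35. This difference did not pass the threshold when adjusted over all 3700 such pairs of probe sets of one gene, of which 7.27% passed (adjusted p = 0.0835 in limma). The pair test was chosen after the data were seen. Relative to the median of all tested probe sets, the log2 changes were 1.62 for 1370141_at and 0.82 for 1372520_at.

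Both Mcl1 calls rested on having both immobilized arrays. With immobilized 1 left out, the changes were 1.53 for 1370141_at (adjusted p = 0.0633) and 0.70 for 1372520_at (adjusted p = 0.0651). With immobilized 2 left out the changes were 1.47 and 0.70, with adjusted p of 0.0757 and 0.0716. The size hardly moved, and in these fits the unstressed pair, whose readings lay farther apart, is the only pair left to give the spread. With unstressed 1 left out the changes were 1.08 and 0.56, and with unstressed 2 left out 1.92 and 0.85, all past the threshold.

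The RefSeq promoter window of Mcl1, from 250 bases before to 50 bases after its annotated start, is shown because both of its probe sets rose. It lies at chr2:185907918-185908217 on the plus strand of GRCr8 and is 64.3% G or C. The farthest upstream of 4 annotated windows of Bcl2l1, the other member that rose, lies at chr3:161764726-161765025 on the minus strand and is 59.0% G or C. Both are written 5′ to 3′ along the gene, with capitals on every match to a searched motif on either strand.
Mcl1: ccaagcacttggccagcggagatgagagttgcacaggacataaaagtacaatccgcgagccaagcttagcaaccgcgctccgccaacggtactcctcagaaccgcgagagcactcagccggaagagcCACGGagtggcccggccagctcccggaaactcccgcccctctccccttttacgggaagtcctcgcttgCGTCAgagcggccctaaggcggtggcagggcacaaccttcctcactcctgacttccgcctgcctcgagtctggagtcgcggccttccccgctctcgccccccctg
Bcl2l1: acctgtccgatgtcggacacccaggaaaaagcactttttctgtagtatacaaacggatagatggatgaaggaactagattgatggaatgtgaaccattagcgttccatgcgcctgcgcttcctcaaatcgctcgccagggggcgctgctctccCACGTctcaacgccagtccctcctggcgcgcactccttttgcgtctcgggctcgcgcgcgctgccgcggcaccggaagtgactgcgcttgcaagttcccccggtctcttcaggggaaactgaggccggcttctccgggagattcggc
The motifs searched were the cAMP response element TGACGTCA and its shorter core TGACG, the AP-1 site TGANTCA, the Egr site GCGNGGGCG, the hypoxia response core NCGTG, the CCAAT box CCAAT and the E-box CACGTG. The shorter core also lies inside the full cAMP response element, and the hypoxia core inside the E-box. The Mcl1 window holds, on the opposite strand, a shorter core at position -55 from the start and a hypoxia core at -123. The Bcl2l1 window printed holds a hypoxia core at -97 alone. Its windows not printed, of which some overlap, hold CCAAT boxes at -93, -124 and 43 and a hypoxia core at -51, each counted from its own start. The boxes at -93 and 43 are the same site, seen in overlapping windows. Which start is used in the medulla was not tested. Among 33469 rat promoter windows of this length, 21.2% hold the shorter core and 60.7% the hypoxia core, so both are common. The full cAMP response element is in 1.83%, the AP-1 site in 7.33% and the Egr site in 4.98%, and none of these letters occurs in either window. The CCAAT box is in 37.5% and the E-box in 6.42% of windows, and neither occurs in the windows printed.

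Bcl2l1 encodes the survival protein Bcl-xL and, by alternative splicing, a short form that promotes death. Its brightest probe set, 1370812_at, read 4226 and 4868 on the immobilized arrays and 2700 and 1584 on the unstressed arrays. The groups did not overlap. The means were 4547 ± 453 in immobilized rats and 2142 ± 789 in unstressed rats (SD, n = 2 each), a log2 change of 1.13 ± 0.26 (SE), or 2.18-fold. The 95% interval was 0.51 to 1.74 and the adjusted p 0.0178 in limma. The order of the unstressed arrays was the reverse of that at Mcl1: unstressed 1 was the higher here and unstressed 2 the higher at both Mcl1 probe sets. The change was 1.51 without unstressed 1 and 0.74 without unstressed 2, both past the threshold. It was 1.23 without immobilized 1 (adjusted p = 0.0956) and 1.02 without immobilized 2 (adjusted p = 0.1465), which ended the call.

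At the other probe sets of Bcl2l1 the groups overlapped, and both lay under the level needed for the test. Probe set 1370485_a_at read 578 and 478 on the immobilized arrays and 352 and 560 on the unstressed arrays, and the groups overlapped. Probe set 1369180_at read 212 and 161 on the immobilized arrays and 149 and 217 on the unstressed arrays, all within the 2.18 to 257 read by the array's 27 Bacillus control probe sets, which match no rat gene. With no filter on level their adjusted p were 0.699 and 0.967 in limma. The transcripts of Bcl2l1 that each probe set reads were not analysed here.

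Bcl2l2 encodes Bcl-w, a survival protein with known roles in neurons and testis. Its brighter probe set, 1393707_at, read 2968 and 3115 on the immobilized arrays and 3123 and 2669 on the unstressed arrays. The groups overlapped, and the log2 change was 0.074 ± 0.16 (SE) with a 95% interval of -0.30 to 0.45 and an adjusted p of 0.753. The interval leaves out changes as large as those of 1370141_at for Mcl1 and 1370812_at for Bcl2l1. Its dim probe set 1369611_at read 62.3 and 87.7 on the immobilized arrays and 39.7 and 26.1 on the unstressed arrays, all within the range of the Bacillus controls.

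Bcl2, the founding survival gene of the family, was dim. Its single probe set 1387611_at read 287 and 359 on the immobilized arrays and 264 and 228 on the unstressed arrays. The groups did not overlap, but 1 unstressed reading lay within the range of the Bacillus controls, and with no filter on level the change of 0.37 had an adjusted p of 0.543 in limma. Of the 3 survival genes that were tested, Mcl1 and Bcl2l1 passed, where over all 10320 tested genes 11.2% were called higher and 21.8% lower. These 3 genes are too few to speak for survival genes as a group.

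Bbc3 encodes Puma, a BH3-only protein that binds all survival members and is a classical target of p53 and of FoxO factors. Its probe set 1382993_at read 1031 and 1091 on the immobilized arrays and 1877 and 1639 on the unstressed arrays. Both immobilized readings were under both unstressed ones. The means were 1061 ± 42.3 in immobilized rats and 1758 ± 169 in unstressed rats (SD, n = 2 each), and the log2 change was -0.72 ± 0.20 (SE), or 1.64-fold lower. The 95% interval was -1.19 to -0.24 and the adjusted p 0.0346 in limma, and 25.5% of all tested probe sets had a larger absolute change.

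The call on Bbc3 was near the threshold. Quantile normalization gave -0.57 with an adjusted p of 0.0585, and median centring -0.58 with 0.0679. It was also lost without immobilized 1 (-0.68, adjusted p = 0.1605), without immobilized 2 (-0.76, adjusted p = 0.138) and without unstressed 1 (-0.62, adjusted p = 0.0838), and stayed past the threshold without unstressed 2 (-0.81). The direction was the same in each of these fits.

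**Figure D2:**
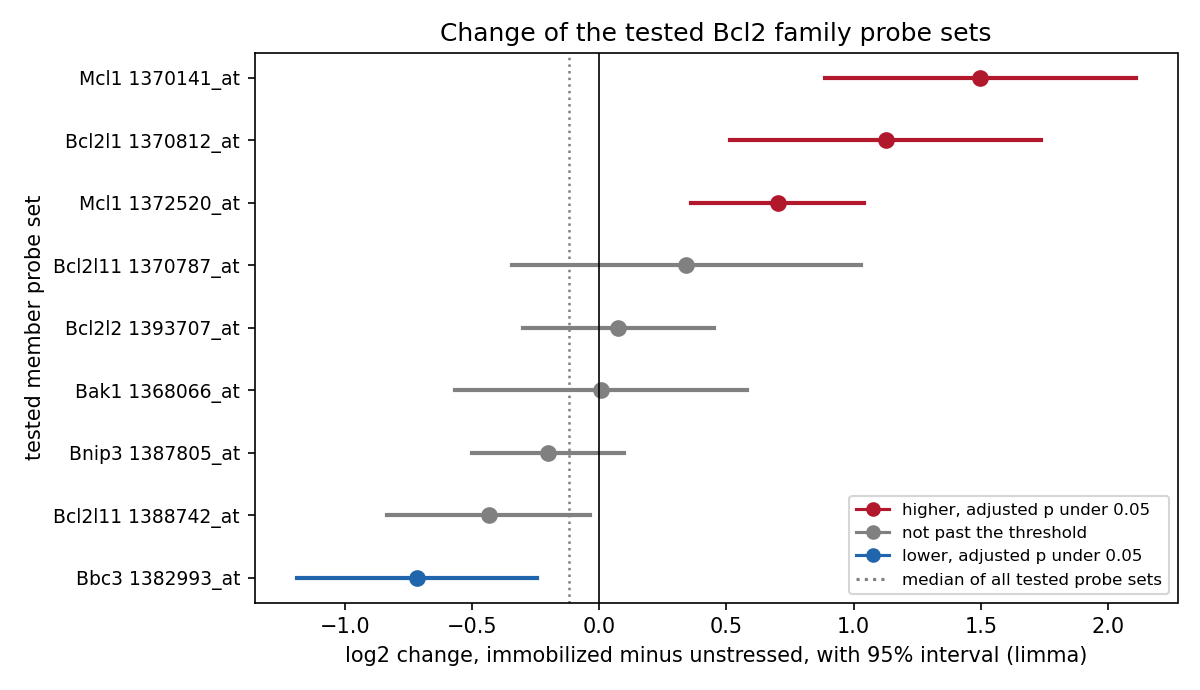
Log2 change, immobilized minus unstressed, of the 9 tested member probe sets (points) with 95% intervals from limma (lines), coloured by call. The dotted line is the median of all tested probe sets, -0.12. The 3 called rises belong to Mcl1 and Bcl2l1 and the called fall to Bbc3, while 5 probe sets are not past the threshold.

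Bcl2l11 encodes Bim, a BH3-only protein with several splice forms that binds all survival members. The log2 changes of its tested probe sets differed in sign, and neither passed the threshold with all arrays. The brightest, 1388742_at, read 2216 and 2299 on the immobilized arrays and 3346 and 2796 on the unstressed arrays, with no overlap. Its log2 change was -0.44 ± 0.17 (SE), with a 95% interval of -0.83 to -0.04, and it did not pass the threshold (adjusted p = 0.0912 in limma). It did without unstressed 2, at -0.56 with an adjusted p of 0.043.

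Probe set 1370787_at of Bcl2l11 read 953 and 757 on the immobilized arrays and 834 and 532 on the unstressed arrays. The groups overlapped, and the log2 change was 0.34 ± 0.29 (SE) with a 95% interval of -0.34 to 1.03 and an adjusted p of 0.405. It exceeded the change of 1388742_at by 0.78 ± 0.27 (SE), a difference that did not pass when adjusted over all pairs (adjusted p = 0.103 in limma). The third, 1387338_s_at, read 121 and 126 on the immobilized arrays and 14.7 and 52.9 on the unstressed arrays. The groups did not overlap, yet all 4 readings lay within the range of the Bacillus controls, and with no filter on level the adjusted p was 0.0865. A direction for Bcl2l11 as a gene is therefore not given.

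Bak1 encodes a pore former of the mitochondrial outer membrane. Its probe set 1368066_at read 1009 and 827 on the immobilized arrays and 1032 and 801 on the unstressed arrays. The pairs nearly coincided, and the log2 change was 0.0072 ± 0.24 (SE) with a 95% interval of -0.57 to 0.58 and an adjusted p of 0.985. Its sign turned with 1 array left out, to -0.13 without immobilized 1 and -0.17 without unstressed 2.

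Bnip3 encodes a distant relative that sits on the mitochondrial surface and acts as a receptor for mitophagy, the removal of mitochondria by autophagy. It is a known target of the hypoxia factor Hif1a. Its probe set 1387805_at was at percentile 96.5 of level, and read 15756 and 14873 on the immobilized arrays and 16611 and 18670 on the unstressed arrays. The groups did not overlap, but the log2 change of -0.20 ± 0.13 (SE) did not pass (95% interval -0.50 to 0.10, adjusted p = 0.267 in limma). After quantile normalization it was -0.34 with an adjusted p of 0.0354, and after median centring -0.062 with 0.778.

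**Figure D3:**
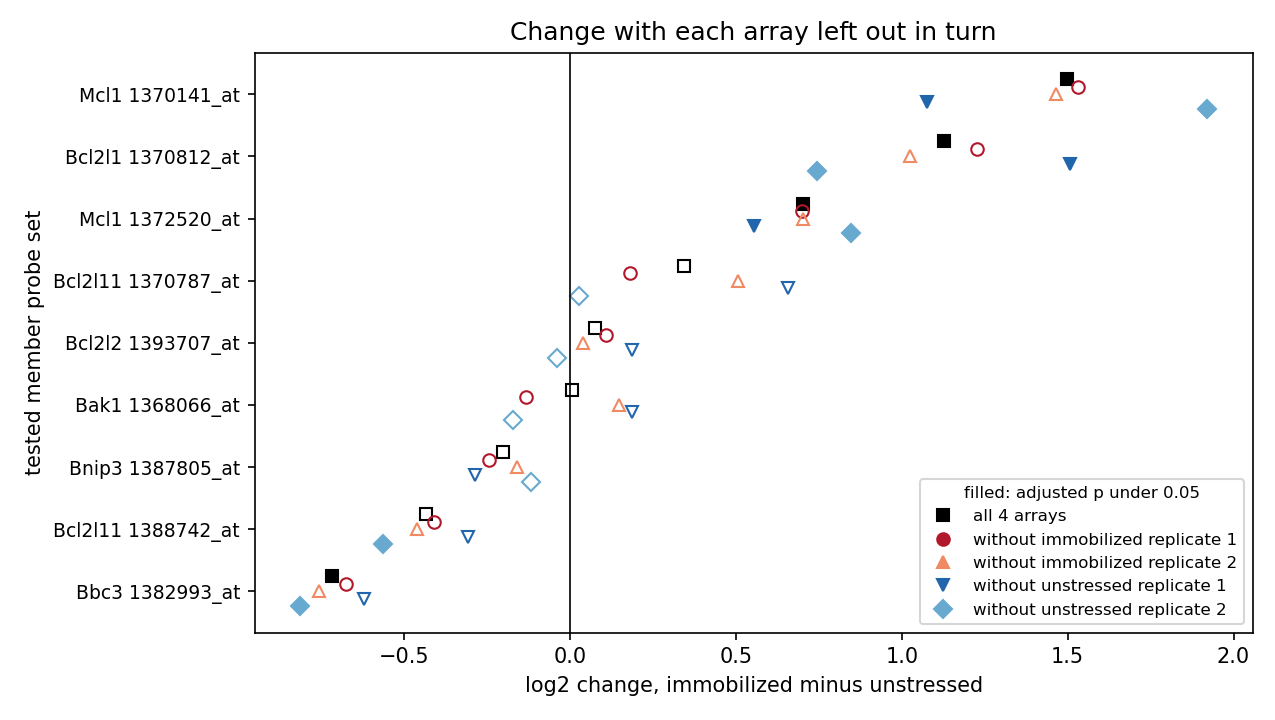
Log2 change, immobilized minus unstressed, of the 9 tested member probe sets with all arrays and with each array left out in turn, filled where the adjusted p is under 0.05. Mcl1 and Bcl2l1 stay above 0 and Bbc3 below it in every fit, and all 3 lose their calls when either immobilized array is left out. Bcl2l2 and Bak1 cross 0.

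In nearness of profile, the 3 genes closest to Mcl1 1370141_at over the 4 arrays, by Euclidean distance between centred log2 values, were Hamp, Fam13c and Dusp11, at 0.144, 0.202 and 0.226 of 10253 genes compared. Those closest to Bbc3 were Unkl, Palmd and Ggact, at 0.0354, 0.0486 and 0.0507. These distances are a description of 4 arrays in 2 groups.

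The wider cell death machinery was read with 8 lists, each gene by its brightest probe set. Of 86 tested genes 16 were called higher and 22 lower, where over all 10320 tested genes 11.2% were called higher and 21.8% lower. The caspases and mitochondrial death factors ran mostly downward. The lists of death receptors and adaptors and of upstream transcription factors held large changes in both directions. In the former, the called falls were those of adaptors.

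**Figure D4:**
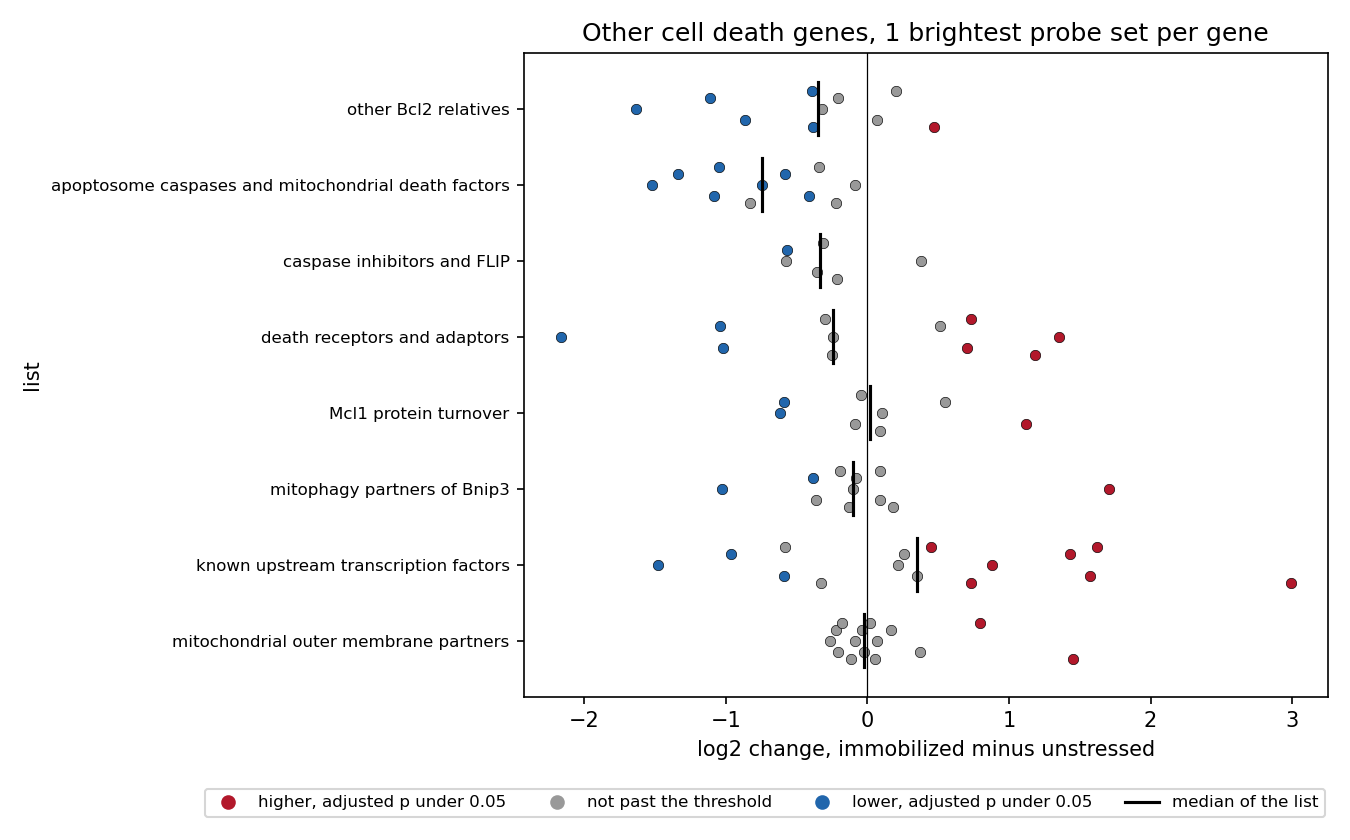
Log2 change, immobilized minus unstressed, of the tested genes of 8 lists of cell death genes, each point 1 gene by its brightest probe set, coloured by call, with the median of each list as a bar. The list of caspases and mitochondrial death factors has 7 genes called lower and 0 called higher, around a median of -0.74. The list labelled mitochondrial outer membrane partners, which also holds genes of other mitochondrial and cell sites, has 2 called rises. With the deposited scaling it has 0 called falls (4 after quantile normalization).

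Among other relatives of Bcl2, 1 of 10 tested genes was higher and 5 were lower, with a median log2 change of -0.35. Bik, a BH3-only gene, had the largest fall among the tested genes of the list. Its probe set read 530 and 454 on the immobilized arrays, both under the level needed for the test, and 1590 and 1528 on the unstressed arrays. The log2 change was -1.64 ± 0.22 (SE, adjusted p = 0.00265 in limma). Bmf, too dim to be tested, had a larger log2 change of -3.30 (adjusted p = 0.00436 in limma with no filter on level). It read 25.4 and 28.6 on the immobilized arrays, within the range of the Bacillus controls, and 473 and 350 on the unstressed arrays. Bcl2l12 fell by 1.11. Bnip1, a protein of membrane fusion at the endoplasmic reticulum, fell by 0.86. The calls were lost without immobilized 1 for Bcl2l12 (-1.22, adjusted p = 0.0508) and without immobilized 2 for Bcl2l12 (adjusted p = 0.0789) and Bnip1 (-0.59, adjusted p = 0.159). A dimmer probe set of Bnip1 was too dim to be tested. Its groups overlapped, with 552 and 457 on the immobilized arrays, 449 and 506 on the unstressed arrays and a log2 change of 0.074. Bok, a relative of Bax, rose by 0.47 (adjusted p = 0.0355), but its dimmer probe set did not pass (adjusted p = 0.628). The call on Bok was lost without immobilized 1 (0.37, adjusted p = 0.224), immobilized 2 (0.56, adjusted p = 0.113) and unstressed 2 (0.41, adjusted p = 0.0667). It was also lost with no filter on level (adjusted p = 0.0571) and without the intensity trend (adjusted p = 0.0777). Without immobilized 1 the list had 0 higher and 2 lower, without immobilized 2 it had 0 and 1, and after median centring 1 and 3.

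Among 11 tested caspases and mitochondrial death factors, 0 were higher and 7 lower, with a median log2 change of -0.74. Casp9, the initiator caspase activated by the apoptosome, read 917 and 729 on the immobilized arrays and 2457 and 2294 on the unstressed arrays, and fell by 1.52 on the log2 scale (adjusted p = 0.00305 in limma). Its other probe sets were too dim to be tested. At the brighter of them the groups overlapped, with a log2 change of -0.050. It read 457 and 322 on the immobilized arrays and 389 and 408 on the unstressed arrays. The dimmest read 56.4 and 88.3 on the immobilized arrays and 233 and 489 on the unstressed arrays, a log2 change of -2.03. Of these readings of the dimmest, only the 489 lay above the range of the Bacillus controls. Casp2 read 3664 and 3352 on the immobilized arrays and 9222 and 8543 on the unstressed arrays. It fell by 1.34 (adjusted p = 0.00087 in limma). Its dimmer probe set was lower too (adjusted p = 0.00679, and 0.0166 with no filter on level). That probe set read 425 and 353 on the immobilized arrays, both under the level needed for the test, and 982 and 1498 on the unstressed arrays. Apaf1, the scaffold of the apoptosome, fell by 0.74. Casp8, the initiator caspase of death receptors, fell by 1.08 and Endog, a mitochondrial nuclease, by 1.05. The calls on Casp8 and Endog were lost without immobilized 1 (adjusted p = 0.0676 and 0.0973) and without immobilized 2 (0.0688 and 0.0662). The dimmer probe set of Casp8 was lower too, with a log2 change of -2.83 (adjusted p = 0.00513). This probe set read 120 and 354 on the immobilized arrays, both under the level needed for the test. It read 1440 and 1744 on the unstressed arrays. The reading of 120 is dimmer than the brightest Bacillus control, at 257, which leaves the size of this fall uncertain. The list had 0 higher and 2 lower with either immobilized array left out, and 0 and 4 after median centring. Diablo and Aifm1, which are released from mitochondria in apoptosis, did not pass the test (log2 changes of -0.090 and -0.22).

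Among 6 inhibitors of caspases and of their activation, 0 were higher and 1 lower, the median being -0.33. Xiap, which binds and blocks caspases, changed by -0.57 at its brighter probe set (adjusted p = 0.0329). Its call was lost after quantile normalization (adjusted p = 0.0512) and median centring (0.0736), and without immobilized 1 (0.119), immobilized 2 (0.21) or unstressed 1 (0.068). It was also lost with no filter on level (0.0529) and without the intensity trend (0.0649). The dimmer probe set of Xiap changed by -0.83 (adjusted p = 0.0456, and 0.0896 with no filter on level). That probe set read 541 and 519 on the immobilized arrays, both under the level needed for the test, and 808 and 1121 on the unstressed arrays. Birc2, an inhibitor that acts in TNF signalling, had a change of 0.38 that did not pass (adjusted p = 0.105).

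Among 11 death receptors and adaptors, 4 were higher and 3 lower, with a median of -0.24. After quantile normalization Fadd was too dim to be tested, and of the 10 genes left 4 were higher and 2 lower, with a median of 0.23. The median over 11 genes also turned sign without immobilized 1 (0.053) and without unstressed 1 (0.12). Tnfrsf12a, the receptor of the cytokine TWEAK, rose by 1.35 (adjusted p = 0.000771) and Tnfrsf21 by 1.19. Tradd, the adaptor of the TNF receptor, read 833 and 660 on the immobilized arrays and 2999 and 3816 on the unstressed arrays, and fell by 2.17 (adjusted p = 0.00108). Fadd, the adaptor that recruits Casp8, fell by 1.04. It read 372 and 378 on the immobilized arrays, both under the level needed for the test, and 777 and 803 on the unstressed arrays. The calls on Tnfrsf21 and Fadd were lost without immobilized 1 (adjusted p = 0.101 and 0.0993) and without immobilized 2 (0.0503 and 0.105). The dimmer probe set of Tnfrsf21 rose by 1.15 (adjusted p = 0.0177). The list had 1 higher and 2 lower without immobilized 1, and 1 and 1 without immobilized 2.

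Among 8 genes that govern turnover of the Mcl1 protein, 1 was higher and 2 lower, against 2 and 0 after either quantile normalization or median centring. Huwe1, which marks Mcl1 for destruction, and Usp9x, which removes that mark, did not pass the test (log2 changes of -0.044 and -0.090). Usp13, another deubiquitinase of Mcl1, rose by 1.12 (adjusted p = 0.00476), a call lost without immobilized 2 (0.94, adjusted p = 0.0667). Of its dimmer probe sets, 1 rose by 0.69 (adjusted p = 0.02) and the other was too dim to be tested. Mapk9 and Btrc fell by 0.61 and 0.59, and both calls were lost after quantile normalization (adjusted p = 0.0889 and 0.0703), median centring (0.095 and 0.0914) and without immobilized 1 (0.134 and 0.174) or immobilized 2 (0.193 and 0.125). That on Mapk9 was also lost without unstressed 2 (0.0884). The dimmer probe sets were lower as well, by a larger log2 change: -1.38 for that of Mapk9 (adjusted p = 0.0158), and -0.77 and -1.25 for those of Btrc (adjusted p = 0.0408 and 0.0136).

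Among 11 mitophagy genes that work with Bnip3, 1 was higher and 2 lower. Map1lc3a, an LC3 protein of the autophagosome, read 32352 and 29195 on the immobilized arrays and 10541 and 8405 on the unstressed arrays, and rose by 1.71 (adjusted p = 0.000641). Optn, an autophagy receptor, changed by -1.03 (adjusted p = 0.00504), a call lost without immobilized 1 (-0.89, adjusted p = 0.056), and its dimmer probe set did not pass (adjusted p = 0.0883). Bnip3l, the closest relative of Bnip3, had a change of -0.38 at the edge of the threshold (adjusted p = 0.0493). Median centring (-0.24, adjusted p = 0.215) and leaving out any array ended that call, with adjusted p of 0.126 and 0.13 without immobilized 1 and 2, and 0.0994 and 0.155 without unstressed 1 and 2. So did testing with no filter on level (adjusted p = 0.0752) and without the intensity trend (adjusted p = 0.103). Its other probe set did not pass (adjusted p = 0.131).

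Among 15 transcription factors known to act on family members in other settings, 7 were higher and 3 lower, with a median of 0.35. Foxo1, of the FoxO factors known to act on Bcl2l11 and Bbc3, read 3043 and 2395 on the immobilized arrays and 8303 and 6897 on the unstressed arrays, and fell by 1.48 (adjusted p = 0.00165). Foxo3 had a change of 0.26 and Hif1a one of 0.35, and neither passed (adjusted p = 0.152 and 0.0957). Egr1, Nfkb1 and Atf4 rose by 2.99, 1.62 and 1.57. The list had 5 higher and 2 lower without immobilized 1, and 4 and 1 without immobilized 2.

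Among 15 genes listed as partners at the mitochondria, on the outer membrane and at other sites, 2 were higher and 0 lower, with a median of -0.022. After quantile normalization 2 were higher and 4 lower, with a median of -0.11, and after median centring the median was 0.12. Ppif, which encodes cyclophilin D of the permeability transition pore, read 10049 and 10927 on the immobilized arrays and 3521 and 4151 on the unstressed arrays, and rose by 1.45 (adjusted p = 0.000825). Mfn1, a mitochondrial fusion protein, rose by 0.80, a call lost without immobilized 2 (0.71, adjusted p = 0.0768). The porins Vdac1, Vdac2 and Vdac3 did not pass the test (log2 changes of -0.022, -0.22 and -0.20).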

How the data were processed

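Linear probe set intensities of 4 arrays were used as deposited, 1 value per probe set and array. The sources used here do not state how the authors summarised probes. The deposited columns share a trimmed mean (2% left out at each end) of 2501, with a spread of 0.00572%, so no further scaling was applied. There were 0 unused sample columns. Control probe sets, 57 in number, stayed out of every count. Gene symbols are those of the platform annotation, checked by Entrez identifier against a GRCr8 gene table: 20826 probe sets have 1 symbol, 436 several and 9780 none, 20758 of the first kind were found in the table and 0 symbols changed. Median intensities were 827 to 864 on the immobilized arrays and 911 to 955 on the unstressed arrays.

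Immobilized and unstressed arrays were compared on log2(intensity + 16) in limma 3.58.1 (R 4.3.3), with an intensity trend, two-sided, adjusted over all 18625 tested probe sets. Fold changes are on that scale and understate those of dim genes. The prior gave 4.81 of 6.81 degrees of freedom. For a single value, 0.333 is the smallest two-sided p of an exact permutation test at 2 arrays a group. The number of arrays limits the precision.

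All members were named, with every probe set. From each list of other cell death genes, up to 4 called genes with the largest changes were to be named (all of them appear), and a gene named as a further example was chosen after its values were seen. The members and lists were chosen with earlier results of these data known. Alternatives were quantile normalization, median centring, offsets of 1 and 64, no filter and a 60th percentile filter, no trend, robust estimation, a threshold of 0.10, 1 probe set per gene and each array left out. Plots were drawn with matplotlib 3.10.9.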

Additional observations from a re-analysis of the deposited data

How the results depend on the processing

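Of the 9 tested member probe sets, the rises of both Mcl1 probe sets and of Bcl2l1 and the fall of Bbc3 kept their direction under every alternative that tested them. The counts of member probe sets called higher and lower, 3 and 1, were 3 and 0 with a 60th percentile filter, under which Bbc3 was not tested, 3 and 0 after median centring, and 3 and 2 at a threshold of 0.10. After quantile normalization they were 3 and 1, but the fall called was that of Bnip3, not Bbc3. With 1 probe set per gene they were 2 and 1. With each array left out in turn they ranged from 0 to 3 and from 0 to 2, both being 0 without either immobilized array. The sign turned for Bcl2l2 without unstressed 2 and for Bak1 without immobilized 1 (-0.13) and without unstressed 2, none of them called: leaving out arrays gave -0.038 to 0.19 for Bcl2l2 and -0.17 to 0.19 for Bak1. Such fits assume that a group of 1 array varies like the other group. Over all tested probe sets, 1246 were called higher with 1 probe set per gene, and leaving out arrays gave 785 to 2638 higher and 893 to 3800 lower. Among the other cell death genes, 13 were called lower after median centring, against 22, and leaving out arrays gave 7 to 16 higher and 6 to 20 lower. The causes were not tested, apart from the fewer probe sets or arrays that some settings hold by construction. No paired analysis was possible because replicate numbers follow accession order and pair nothing. Readings within the range of the Bacillus controls, at 3 member probe sets on all arrays, limit what can be said of the dim probe sets.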
